A study of Mus musculus with 20 samples.

Results

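The oligodendrocyte precursor genes are 8 genes chosen by name as marks of these cells, and 7 of them were measured among 18194 genes on the arrays: Pdgfra, Cspg4, Gpr17, Bmp4, Enpp6, Vcan and Sox10. A member was measured where a probe set was annotated to its symbol alone, and where a gene had several such probe sets the brightest one, by its mean over the arrays, was taken. Neu4, a sialidase that trims sialic acid from glycans, is named only and was not analysed here.

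The 7 genes were followed in dissections enriched for motor or for sensory cortex of 10 female C57Bl6 mice. In experimental autoimmune encephalomyelitis (EAE), used to model multiple sclerosis, mice are immunised against myelin and become paralysed. The groups were motor cortex of 6 EAE mice and of 4 healthy mice, and sensory cortex of these 6 EAE and 4 healthy animals, which gave 20 arrays, 1 per region and mouse. EAE mice had been injected at 8 to 12 weeks of age with a peptide of myelin oligodendrocyte glycoprotein, 100 µg into the flanks plus 50 µg into the base of the tail, and with 400 ng of pertussis toxin on each of days 0 and 3. Healthy mice of the same age range were cage mates without a described mock injection, so immunisation and disease cannot be told apart in the comparison. Tissue was taken on day 21 according to the protocol and on days 18 to 21 according to the labels of the EAE mice. The mice came from 2 cohorts with 3 EAE and 2 healthy mice each, and the average clinical grades of EAE mice 1 to 6 were 2.5, 3, 2.75, 3, 3.5 and 3.5.

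Oligodendrocyte precursors are the dividing glia from which myelinating oligodendrocytes arise, and they persist throughout the adult cortex. Platelet-derived growth factor acting on Pdgfra keeps them alive and dividing, whereas bone morphogenetic proteins such as Bmp4 hold back their maturation. A precursor that leaves the cycle passes through a committed stage marked by Gpr17 and then through a newly formed stage marked by Enpp6 before the myelin genes are switched on, and Sox10 is present from the precursor to the myelinating cell. Several of these genes are not restricted to the lineage: Cspg4 is also made by pericytes, and Pdgfra, Vcan and Bmp4 also by fibroblasts of the meninges and vessel walls.

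All levels and differences are log2 values. Array medians lay between 8.22 and 8.32, and no detection calls were used. Pdgfra, Cspg4, Gpr17, Vcan and Sox10 lay above the array median on all 20 arrays and Bmp4 on 19, whereas Enpp6 lay below it on every array, at 6.94 to 7.53. The 6 neuronal genes of a marker list, among them Slc17a7 of excitatory and Gad1 of inhibitory neurons, were above the array median on all 20 arrays. These are bulk tissue values, in which fewer cells of a type and less RNA per cell cannot be told apart. Motor cortex of healthy mouse 4 and sensory cortex of healthy mouse 1 were the 2 arrays processed on a second day.

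Pdgfra, the receptor that binds platelet-derived growth factor A, ranged in EAE motor cortex from 10.74 to 10.96 with a median of 10.87, and stood at 10.94, 11.02, 10.99 and 10.86 in healthy motor cortex. In sensory cortex it ranged from 10.58 to 10.86 with a median of 10.74 in EAE mice, and stood at 10.69, 10.91, 10.54 and 10.68 in healthy mice. The EAE and healthy values overlapped in both regions. The order of group means was healthy motor, EAE motor, EAE sensory and healthy sensory cortex, and of these neighbours only healthy motor and EAE motor cortex were further apart than the larger of their SDs.

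Cspg4, the NG2 proteoglycan on the precursor surface, ranged from 8.52 to 8.89 with a median of 8.69 in EAE motor cortex, and stood at 8.71, 8.63, 8.70 and 8.78 in healthy motor cortex. Its range in EAE sensory cortex was 8.68 to 8.92 with a median of 8.83, and the healthy sensory values were 8.71, 8.73, 8.70 and 8.87. The 4 group means followed each other more closely than their SDs, and the healthy values lay inside the EAE range in both regions.

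Gpr17, an orphan G protein-coupled receptor that is switched on in committed precursors and restrains their final maturation, had the largest difference in mean by condition. It ranged from 9.45 to 10.03 with a median of 9.87 in EAE motor cortex, and stood at 10.01, 10.24, 10.24 and 10.14 in healthy motor cortex. In sensory cortex it ranged from 9.45 to 9.90 with a median of 9.69 in EAE mice, and stood at 9.75, 9.86, 10.07 and 10.05 in healthy mice. In each region 4 of the 6 EAE arrays lay below all 4 healthy arrays. Healthy motor cortex stood above healthy sensory cortex by more than the larger SD, and the lower 3 groups did not differ from their neighbours beyond theirs.

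Bmp4, the secreted ligand, varied more between EAE mice than any other member did. In EAE motor cortex it ranged from 8.13 in mouse 2 to 8.99 in mouse 3, with a median of 8.51, and it stood at 8.53, 8.38, 8.69 and 8.59 in healthy motor cortex. In EAE sensory cortex it ranged from 8.42 to 9.02 with a median of 8.63, and it stood at 8.44, 8.26, 8.68 and 8.58 in healthy sensory cortex. EAE mice 3 and 4 were the highest and mouse 2 the lowest EAE mouse in both regions, and no neighbouring group means were further apart than their SDs. The SD over EAE motor arrays was 0.34, against 0.13 over healthy motor arrays.

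Enpp6, a phosphodiesterase that releases choline from lipid breakdown products and marks newly formed oligodendrocytes, ranged from 7.11 to 7.29 with a median of 7.18 in EAE motor cortex. The healthy motor values were 7.33, 7.32, 7.53 and 7.21. In sensory cortex it ranged from 6.94 to 7.43 with a median of 7.19 in EAE mice, and stood at 7.48, 7.27, 7.30 and 7.51 in healthy mice. In each region 4 of 6 EAE arrays lay below all healthy arrays. Healthy and EAE motor cortex differed by more than the larger SD, and the other neighbours did not.

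Vcan, the large chondroitin sulfate proteoglycan versican of the extracellular matrix, ranged from 8.86 to 9.36 with a median of 9.16 in EAE motor cortex, and stood at 9.05, 9.20, 9.17 and 8.98 in healthy motor cortex. In sensory cortex it ranged from 8.59 to 9.14 with a median of 8.93 in EAE mice, and stood at 8.66, 8.86, 8.67 and 8.89 in healthy mice. EAE and healthy values overlapped in both regions. Vcan was higher in motor than in sensory cortex in each of the 4 healthy mice, as 17.1% of all genes were.

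Sox10, the transcription factor of the whole lineage, ranged from 10.06 to 10.30 with a median of 10.20 in EAE motor cortex, and stood at 10.52, 10.54, 10.17 and 10.23 in healthy motor cortex. In sensory cortex it ranged from 10.06 to 10.30 with a median of 10.13 in EAE mice, and stood at 10.49, 10.48, 10.17 and 10.29 in healthy mice. Healthy mice 1 and 2, which form cohort 1, were the highest in both regions, and healthy mice 3 and 4 of cohort 2 lay within the EAE range. The step in the order of group means was between healthy sensory and EAE motor cortex, the only neighbours further apart than the larger SD.

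**Figure D1:**
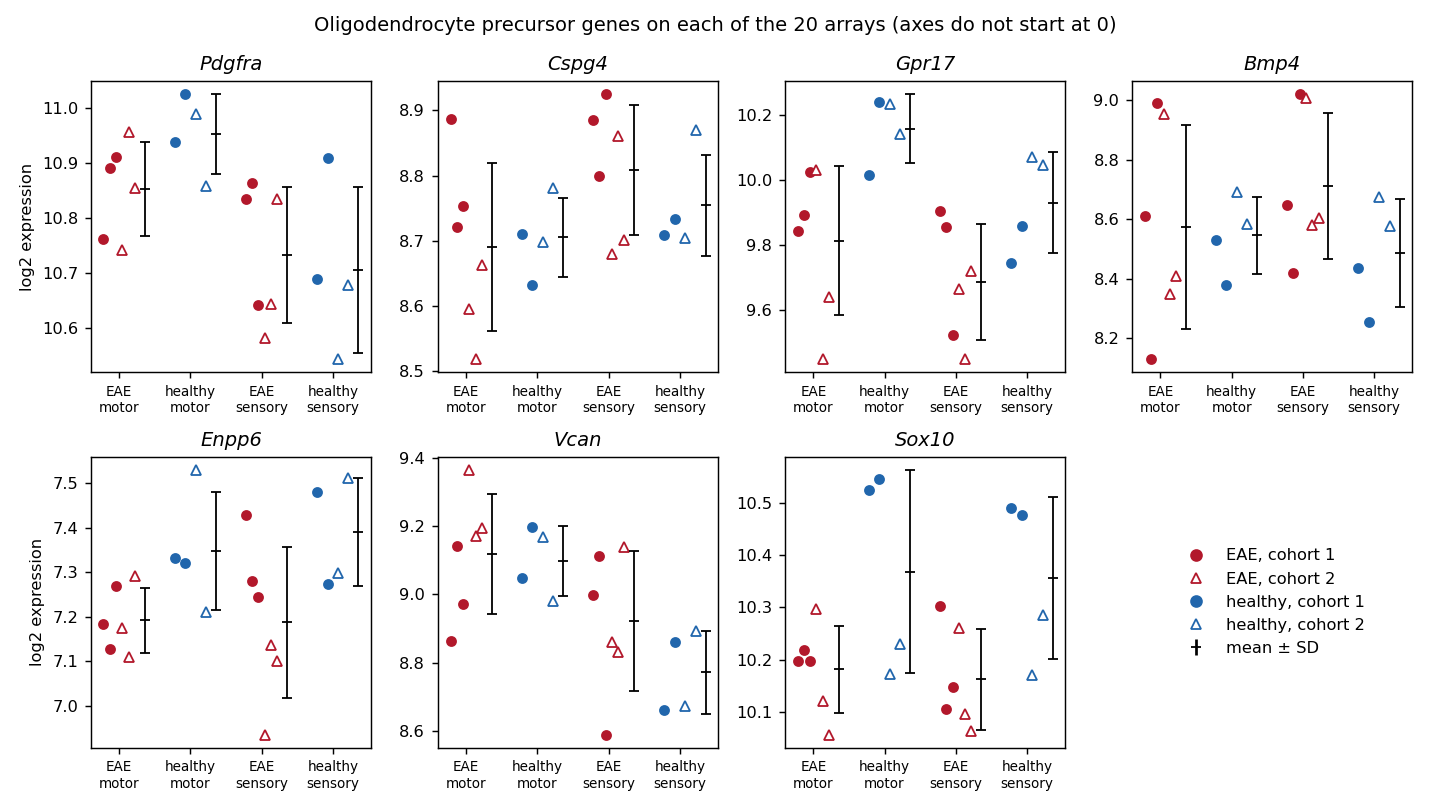
Log2 expression (vertical axis, not starting at 0) of the 7 measured precursor genes on each of the 20 arrays, by region and condition, with filled circles for cohort 1, open triangles for cohort 2 and the mean ± SD beside each group. Gpr17 and Enpp6 sit lower in the EAE groups with some overlap, Sox10 is highest in the healthy mice of cohort 1, and the EAE mice are widely spread for Bmp4.

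The first comparison set EAE against healthy mice for the precursor genes within each region. None of the 7 passed the threshold of a Benjamini-Hochberg adjusted p under 0.05 in limma in motor cortex, where 2.25% of all genes did, or in sensory cortex, where 2.41% did. At an unadjusted limma p under 0.05, 3 of the 7 genes, namely Gpr17, Enpp6 and Sox10, stood lower in EAE mice in each region, against 10.3% of all genes in motor cortex and 11.7% in sensory cortex. The other 4 members had no such difference in either region. The median difference over the members was -0.10 in motor and 0.03 in sensory cortex, beside medians of -0.01 and 0.00 over all genes.

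Gpr17 had the largest difference. EAE minus healthy was -0.35 ± 0.11 (SE) in motor cortex, a ratio of 0.787, with a limma p of 0.00665 and an adjusted p of 0.124. In sensory cortex it was -0.25 ± 0.10, with a limma p of 0.0402 and an adjusted p of 0.242. The 95% interval in motor cortex ran from -0.58 to -0.11. An exact two-sided permutation over the 210 splits of the 10 mice, which did not take cohort into account, gave p = 0.0286 for motor and p = 0.0571 for sensory cortex.

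Enpp6 stood at -0.16 ± 0.07 in motor cortex (limma p 0.0439, adjusted p 0.297) and at -0.20 ± 0.08 in sensory cortex (limma p 0.0341, adjusted p 0.224). Its dimmer second probe set had differences of -0.27 ± 0.08 in motor and -0.16 ± 0.09 in sensory cortex in a fit over all probe sets. Both probe sets of Enpp6 thus had negative estimates in both regions.

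Sox10 stood at -0.19 ± 0.07 in each region, with limma p of 0.0205 in motor and 0.0166 in sensory cortex and adjusted p of 0.213 and 0.164. Its other 2 probe sets did not share this estimate: they stood at 0.05 ± 0.06 and -0.02 ± 0.10 in motor cortex, and at -0.04 ± 0.06 and -0.02 ± 0.08 in sensory cortex. The exact permutation gave p = 0.114 for motor and p = 0.0476 for sensory cortex.

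The other 4 members did not reach an unadjusted p under 0.05. Pdgfra was at -0.10 ± 0.06 in motor and 0.03 ± 0.07 in sensory cortex, and Cspg4 at -0.02 ± 0.07 and 0.05 ± 0.06, with limma adjusted p from 0.476 to 0.938. Vcan was at 0.02 ± 0.08 in motor and at 0.15 ± 0.11 in sensory cortex, and Bmp4 at 0.03 ± 0.15 and 0.23 ± 0.13, with limma adjusted p from 0.371 to 0.953. A dimmer probe set of Pdgfra had a difference of -0.26 ± 0.10 in sensory cortex, with a limma p of 0.0288 and an adjusted p of 0.263.

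With the 2 arrays of each mouse averaged, 7.87% of all genes passed and again no member did. Enpp6 stood at -0.18 ± 0.05 (limma adjusted p 0.0524), Gpr17 at -0.30 ± 0.09 (adjusted p 0.0632) and Sox10 at -0.19 ± 0.06 (adjusted p 0.0825). These 3 again were the members lower at an unadjusted p under 0.05, which 15.8% of all genes were. Gpr17 was the only member for which every EAE mouse lay below every healthy mouse, as 6.93% of all genes did: its averages ran from 9.45 to 9.87 in EAE mice, with a median of 9.81, and were 9.88, 10.05, 10.15 and 10.09 in healthy mice. EAE mice 1 and 2 and healthy mouse 1 were nearly level at this edge. The exact permutation p was 0.00952 for Gpr17, 0.0190 for Enpp6 and 0.0762 for Sox10. For Pdgfra the 95% interval of the averaged difference was -0.15 to 0.07, and for Cspg4 it was -0.10 to 0.14.

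Whether a member passed in the averaged comparison depended on the mice and the settings. Enpp6 was called without EAE mouse 1 (adjusted p 0.03725) or healthy mouse 2 (0.0431), Sox10 without EAE mouse 4 (0.0295) and Gpr17 without healthy mouse 1 (0.0460), each in limma.

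**Figure D2:**
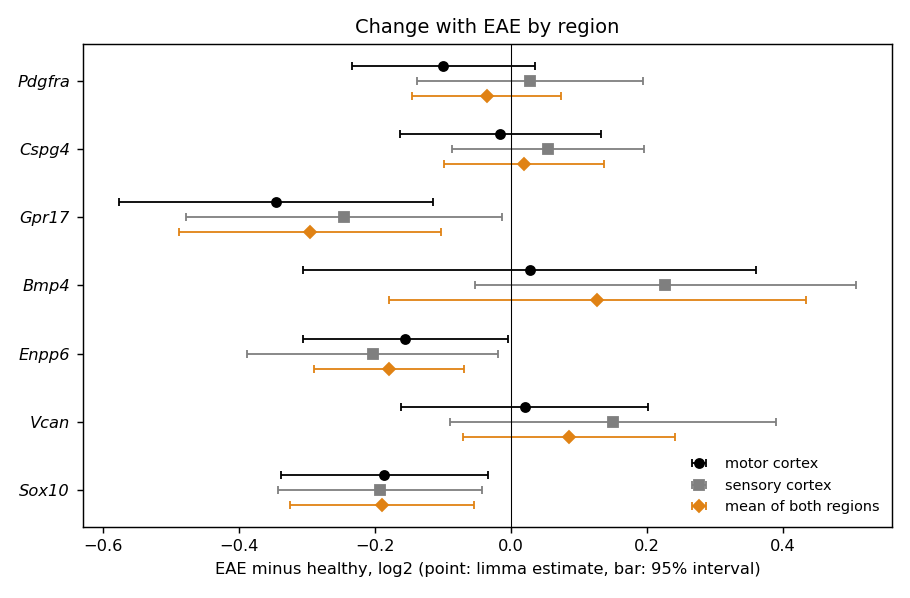
Difference between EAE and healthy mice (horizontal axis, log2, limma estimate with 95% interval) for the 7 precursor genes in motor cortex, sensory cortex and the mean of both regions. The intervals of Gpr17, Enpp6 and Sox10 lie below 0 before adjustment over all genes, and those of Pdgfra, Cspg4, Bmp4 and Vcan include 0.

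The estimates were not of the same size in the 2 cohorts. For Gpr17 the averaged difference was -0.47 ± 0.11 in cohort 2 and -0.12 ± 0.08 in cohort 1, and for Enpp6 it was -0.26 ± 0.06 in cohort 2 and -0.10 ± 0.07 in cohort 1. Sox10 had the opposite pattern, with -0.07 ± 0.08 in cohort 2 and -0.31 ± 0.06 in cohort 1. In single regions Gpr17 was at -0.48 in motor and at -0.45 in sensory cortex of cohort 2 and at -0.21 and -0.04 in cohort 1.

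A test of the difference between the cohorts, added after these values had been seen, called no gene. For the averaged regions cohort 2 minus cohort 1 was 0.25 ± 0.10 for Sox10 (limma p 0.0343), -0.34 ± 0.15 for Gpr17 (limma p 0.0439) and -0.23 ± 0.09 for Cspg4 (limma p 0.0255), each with an adjusted p of 0.999. For Enpp6 it was -0.17 ± 0.09 (limma p 0.0962, adjusted p 0.999), short of an unadjusted p under 0.05. The Sox10 values in healthy mice separated by cohort as given above, and the healthy mice of cohort 1 numbered 2.

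The second comparison asked whether the EAE difference was the same size in motor and sensory cortex of the same mice. No gene passed (422 genes, 2.32%, at an unadjusted limma p under 0.05). Bmp4 was the 1 member at that level: its EAE difference was lower in motor than in sensory cortex by -0.20 ± 0.07 (limma p 0.0197, adjusted p 1.00). Motor minus sensory Bmp4 was -0.04, -0.29, -0.03, -0.05, -0.23 and -0.19 in EAE mice 1 to 6, against 0.10, 0.12, 0.01 and 0.01 in healthy mice 1 to 4. It was thus below 0 in every EAE mouse, as for 4.94% of all genes, and above 0 in every healthy mouse, as for 17.1%. The share of all genes with both patterns was not counted, and several Bmp4 values were close to 0. The other 6 members had differences from -0.13 to 0.05 between regions.

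The third comparison asked which precursor genes differed between the regions. In healthy mice 3 of the 7 members were higher in motor cortex at an adjusted p under 0.05, namely Vcan, Pdgfra and Gpr17, where 4.42% of all genes were higher and 7.35% differed either way. Motor minus sensory Vcan was 0.39, 0.34, 0.49 and 0.09 in healthy mice 1 to 4, with a mean of 0.33 ± 0.07 (SE, limma adjusted p 0.0122). Pdgfra differed by 0.25, 0.11, 0.44 and 0.18, with a mean of 0.25 ± 0.06 (limma adjusted p 0.0345). Gpr17 differed by 0.27, 0.38, 0.16 and 0.10, with a mean of 0.23 ± 0.06 (limma adjusted p 0.0405). These 3 genes and Bmp4 were higher in motor cortex in each of the 4 healthy mice, as 17.1% of all genes were. Cspg4, Bmp4, Enpp6 and Sox10 had mean differences from -0.05 to 0.06.

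These 3 calls rested on few mice. Without healthy mouse 1, 2 or 3 none of the 3 genes passed, with limma adjusted p from 0.0526 to 0.0899 for Vcan, 0.0561 to 0.195 for Pdgfra and 0.111 to 0.205 for Gpr17, and all kept their sign. Without mouse 4 all 3 passed. With the arrays of the second processing day left out, 2 healthy mice had both regions and the differences were 0.42 for Vcan, 0.28 for Pdgfra and 0.27 for Gpr17, all called. Among the other probe sets, 7 of Vcan had regional differences from -0.05 to 0.20 and the 2 of Pdgfra had -0.08 and 0.08, none of them called. In a fit over all probe sets the probe set used for Vcan still passed (limma adjusted p 0.0287), and those of Pdgfra and Gpr17 did not (0.0681 and 0.0785).

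In EAE mice no member differed between the regions at an adjusted p under 0.05, where 4% of all genes did. Vcan differed by -0.13, 0.03, 0.38, 0.50, 0.34 and 0.06 in EAE mice 1 to 6, with a mean of 0.20 ± 0.09 (SE, limma adjusted p 0.316). Pdgfra had a mean difference of 0.12 ± 0.06 (limma adjusted p 0.422) and Gpr17 of 0.13 ± 0.08 (limma adjusted p 0.569). For Gpr17 mice 3 and 4 had differences of 0.51 and 0.37, and the other 4 mice lay between -0.08 and 0.04. Bmp4 was lower in motor cortex in all 6 EAE mice, as 4.94% of all genes were, with a mean of -0.14 ± 0.05 (limma p 0.0273, adjusted p 0.244). A regional difference called in healthy and not in EAE mice is not shown to differ between them: that difference is the comparison of EAE changes given above, in which none of these genes passed.

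**Figure D3:**
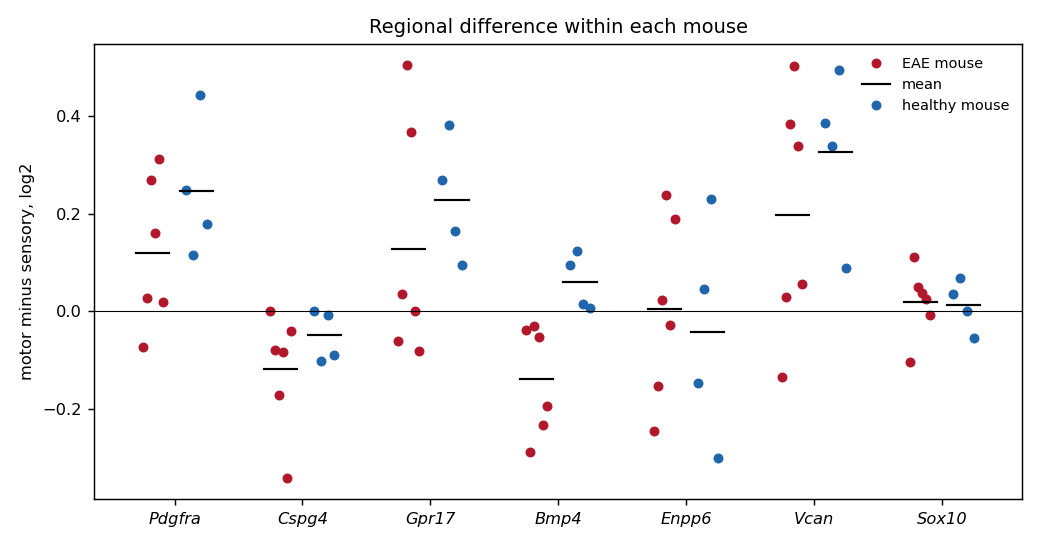
Motor minus sensory log2 expression (vertical axis) of the 7 precursor genes within each mouse, EAE mice left and healthy mice right, with the mean as a line. All 4 healthy mice lie above 0 for Pdgfra, Gpr17, Bmp4 and Vcan, and all 6 EAE mice lie below 0 for Bmp4.

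Of the 7 measured genes 5 (Pdgfra, Cspg4, Bmp4, Enpp6 and Vcan) had an entry among RefSeq promoters of build GRCm38.p6, each 300 bases long with 250 before and 50 after the annotated start. Those of 3 genes are shown: those of Pdgfra and Vcan, the pair that differed between the regions and followed each other most closely over the arrays, and that of Enpp6, which had the smallest adjusted p in the averaged EAE comparison. Each is written 5′ to 3′ on the strand of its gene, and capitals mark matches to CANNTG, the E-box read by basic helix-loop-helix factors such as Olig2, and to ACAAAG or ACAATG, cores of the sites read by Sox proteins.
Pdgfra, chr5:75152001-75152300, plus strand: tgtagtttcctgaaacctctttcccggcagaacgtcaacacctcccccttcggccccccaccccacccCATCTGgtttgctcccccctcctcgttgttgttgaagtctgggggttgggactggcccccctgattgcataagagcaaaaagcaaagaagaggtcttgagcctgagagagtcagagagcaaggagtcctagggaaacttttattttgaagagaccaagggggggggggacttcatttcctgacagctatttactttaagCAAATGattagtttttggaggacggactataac
Vcan, chr13:89742463-89742762, minus strand: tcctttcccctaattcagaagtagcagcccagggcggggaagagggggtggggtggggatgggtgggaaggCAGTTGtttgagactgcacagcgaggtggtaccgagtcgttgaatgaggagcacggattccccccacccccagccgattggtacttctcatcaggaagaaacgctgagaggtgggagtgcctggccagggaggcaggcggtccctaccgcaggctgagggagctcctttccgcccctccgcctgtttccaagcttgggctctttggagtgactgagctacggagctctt
Enpp6, chr8:46986637-46986936, plus strand: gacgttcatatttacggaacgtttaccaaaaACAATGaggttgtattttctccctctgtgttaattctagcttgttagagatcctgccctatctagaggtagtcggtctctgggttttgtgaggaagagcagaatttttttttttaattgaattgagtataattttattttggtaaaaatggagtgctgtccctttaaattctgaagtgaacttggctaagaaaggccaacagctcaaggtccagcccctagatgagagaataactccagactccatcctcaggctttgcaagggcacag
The Pdgfra window held 2 E-boxes, CATCTG starting at position -182 from the start site and CAAATG at 18. The Vcan window held 1, CAGTTG at -179, and the Enpp6 window held none. ACAATG was found once, in the Enpp6 window at -219, and ACAAAG in none of the 5 windows. Both strands were searched, and no 2 matches overlapped. Over 32851 RefSeq promoters of this length 72.31% held an E-box, 12.57% held ACAATG and 18.71% held ACAAAG. A match describes letters in a window and is not a bound site.

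The fourth comparison set the precursor genes against clinical grade in the 6 EAE mice. No member passed in either region. In motor cortex 0.022% of all genes (4 genes) had a slope with an adjusted p under 0.05, and in sensory cortex no gene had one (494 genes, 2.72%, at an unadjusted limma p under 0.05). At the unadjusted level Gpr17 and Cspg4 had negative slopes in motor cortex, of -0.42 ± 0.16 (limma p 0.0216, adjusted p 0.387) and -0.27 ± 0.12 per grade (limma p 0.0432, adjusted p 0.466), where 6.65% of all genes had a negative slope at that level. No member had such a slope in sensory cortex.

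Over the 14 relations of a gene and a region with grade, the largest Pearson r in size was that of Cspg4 in motor cortex, with r -0.83 (exact permutation p 0.05, adjusted 0.467) and Spearman rho -0.85 (exact permutation p 0.0444, adjusted 0.311). Its motor values were 8.89 in the mouse of grade 2.5, 8.75 at 2.75, 8.72 and 8.60 at grade 3, and 8.52 and 8.66 at 3.5. For this 3 mice tied for the largest distance from the median grade. Leaving out 2 of these gave r from -0.90 to -0.43. In cohort 1 the Cspg4 slope was -0.33 per grade and in cohort 2 it was -0.01, so within cohort 2 the relation did not hold. Cohort 2 holds both mice of grade 3.5 and cohort 1 both mice under grade 3, so grade and cohort overlap only in part.

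Gpr17 in motor cortex had r -0.74 (exact permutation p 0.1, adjusted 0.467) and rho -0.53 (exact permutation p 0.3, adjusted 0.525). Its r was -0.94 to 0.48 with 2 of the 3 most distant mice left out, and its slope was -0.97 in cohort 2 and 0.10 in cohort 1, so the relation rested on the mice of grade 3.5. Sox10 in sensory cortex had r -0.77 (exact permutation p 0.0944, adjusted 0.467) and rho -0.88 (exact permutation p 0.0333, adjusted 0.311), with slopes of -0.36 in cohort 2 and -0.39 in cohort 1. This rho was the largest in size of the 14, and r was -0.53 to -0.38 with 2 of the 3 most distant mice left out. The remaining 11 relations had r from -0.63 to 0.65.

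**Figure D4:**
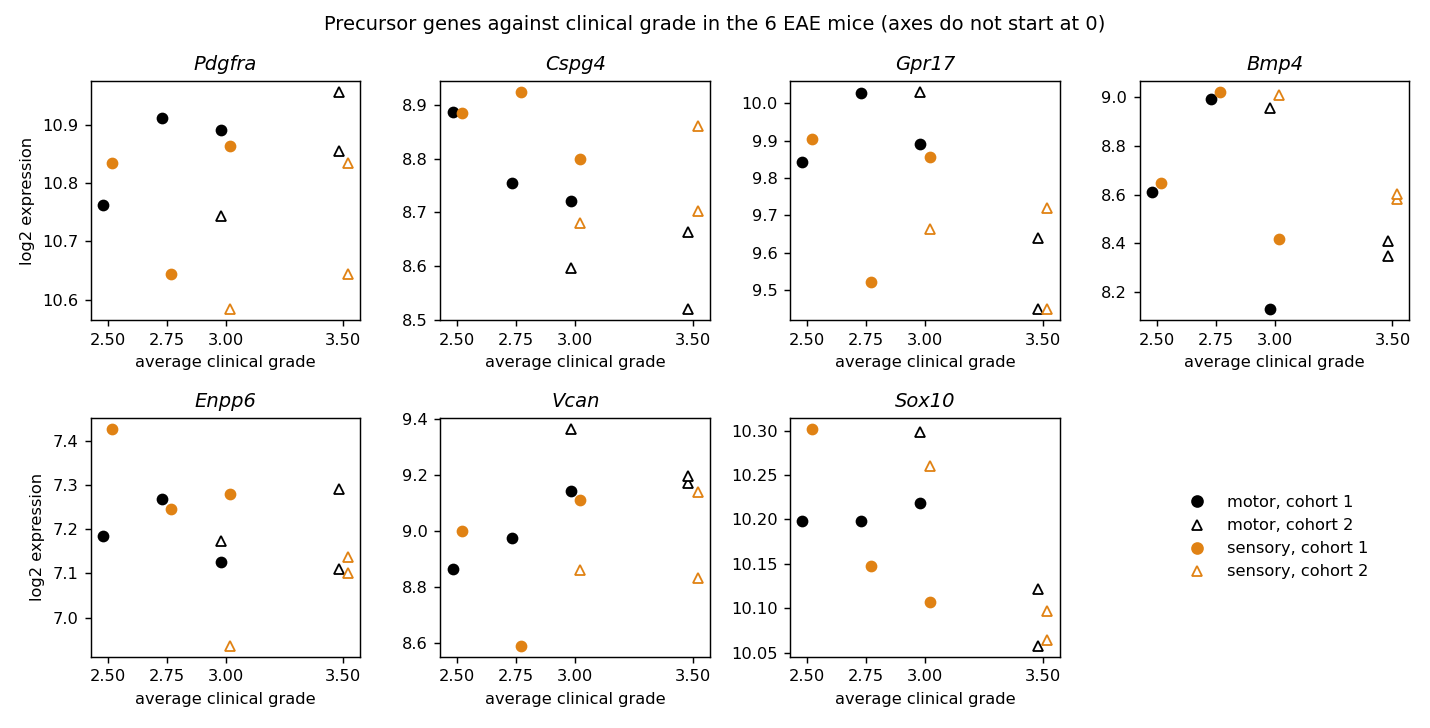
Log2 expression (vertical axis, not starting at 0) of the 7 precursor genes against average clinical grade in the 6 EAE mice, black for motor and orange for sensory cortex, filled circles for cohort 1 and open triangles for cohort 2. Cspg4 in motor cortex is highest at grade 2.5 and low at 3.5, and Gpr17 in motor cortex is low in the 2 mice of grade 3.5 alone.

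The members did not move as one block over the arrays. As a description over 20 arrays, in which pairs of arrays share a mouse and groups share a condition, Pdgfra and Vcan had the highest correlation (r 0.67), Gpr17 followed Enpp6 (0.50) and Sox10 (0.43), and Cspg4 ran against Vcan (-0.57). With group means subtracted the values were 0.51 for Pdgfra and Vcan, 0.27 for Gpr17 and Enpp6, 0.06 for Gpr17 and Sox10, and -0.53 for Cspg4 and Vcan. Bmp4 ran against Pdgfra, at -0.47 over all arrays and -0.59 with group means subtracted.

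The genes most like each member over the 20 arrays came from outside the lists used here. Gpr17 was most like Otub2, a deubiquitinase (r 0.93), then Ralgps2 and Gpsm2. Pdgfra was most like Mpdz, a multi-PDZ scaffold protein (0.91), then Casd1 and Scn3a. Vcan was most like Nucb2 (0.89), then Adcy7, an adenylate cyclase, and Dscaml1. Sox10 was most like Arhgap24 (0.89), then Kdr, the vascular endothelial growth factor receptor, and Tmem98. Bmp4 was most like Foxc2, a forkhead transcription factor (0.88), then Eya2 and Cited1. Cspg4 was most like Loxl3, a lysyl oxidase of the matrix (0.86), then Palld and Abhd17b. Enpp6 was most like Jakmip1 (0.82), then Brox and Tmem144.

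The position of the 7 genes along the lineage was described with other genes of each stage. Of 23 measured other precursor genes, 2 were lower in EAE motor cortex, where 1.74% of all genes were: Cacng4, an auxiliary subunit of AMPA receptors (-0.33 ± 0.06, limma adjusted p 0.0187), and Ncan, the matrix proteoglycan neurocan (-0.33 ± 0.07, adjusted p 0.0305). In sensory cortex Cacng4 was the 1 lower gene (-0.30 ± 0.06, limma adjusted p 0.0400), where 1.51% of all genes were lower. The list median was -0.13 in motor and -0.07 in sensory cortex. Lhfpl3 stood at -0.24 ± 0.06 in motor cortex and Matn4, a matrix protein, at -0.22 ± 0.07 in motor and -0.25 ± 0.10 in sensory cortex, none of these past the threshold. Of the 23, 19 were below 0 in motor and 16 in sensory cortex. Gria3 went the other way in sensory cortex, at 0.28 ± 0.12 (limma p 0.0402, adjusted p 0.242). With the regions averaged 3 of the 23 were lower, namely Cacng4, Lhfpl3 and Emid1, where 5.64% of all genes were.

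Among 15 measured lineage transcription factors, St18 was lower in EAE motor cortex (-0.62 ± 0.11, limma adjusted p 0.0117), where 1.74% of all genes were. None passed in sensory cortex. At an unadjusted limma p under 0.05, 7 were lower in motor and 8 in sensory cortex, where 10.3% and 11.7% of all genes were. In sensory cortex 1 was higher at that level. The medians of the 15 were -0.16 in motor and -0.18 in sensory cortex, beside -0.01 and 0.00 over all genes. In each region 14 of 15 had a negative estimate. Nkx2-2 stood at -0.33 ± 0.10 and -0.36 ± 0.10 in motor and sensory cortex, and Olig1, which acts with Olig2, at -0.18 ± 0.06 and -0.20 ± 0.06. With the regions averaged 5 of the 15 were lower, where 5.64% of all genes were: St18, Nkx2-2, Olig1, Sox8, a relative of Sox10, and Prrx1.

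Of 21 measured genes of committed precursors and newly formed oligodendrocytes, the stage of Gpr17 and Enpp6, 1 was lower in each region. Of all genes 1.74% were lower in motor and 1.51% in sensory cortex. Bcas1, which marks oligodendrocytes that have begun to myelinate, fell by 0.49 ± 0.08 in motor (limma adjusted p 0.00885) and by 0.46 ± 0.08 in sensory cortex (adjusted p 0.0238). Gpr37, an orphan receptor of differentiating oligodendrocytes, was at -0.52 ± 0.14 in motor and at -0.52 ± 0.12 in sensory cortex and passed with the regions averaged (limma adjusted p 0.0232). The list medians were -0.06 in both regions.

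Mature myelin genes had the largest negative medians of these stages, -0.35 in motor and -0.36 in sensory cortex. Of 19 measured, 6 were lower in EAE motor cortex, 2 in sensory cortex and 12 with the regions averaged, where 1.74%, 1.51% and 5.64% of all genes were lower. Ugt8a, which makes the myelin galactolipids, fell by 0.69 ± 0.07 in motor cortex, Pllp, the myelin membrane protein plasmolipin, by 0.57 ± 0.10, Mag, the myelin-associated glycoprotein, by 0.45 ± 0.09, and Gjb1, a gap junction protein, by 0.42 ± 0.09. In sensory cortex Pllp fell by 0.62 ± 0.09 and Mag by 0.45 ± 0.10. The fall was not shared by every gene of the list. Estimates were below 0 for 18 of the 19 genes in motor cortex and for 15 in sensory cortex. Mbp changed little (motor -0.04 ± 0.07, sensory 0.03 ± 0.05), and Mal had positive estimates (motor 0.07 ± 0.11, sensory 0.12 ± 0.10). The mean level of the 19 genes was 10.68 ± 0.10 (SD, n = 6) in EAE motor and 10.99 ± 0.18 (SD, n = 4) in healthy motor cortex. The difference between the stages' medians was not tested.

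Genes of the cell cycle had medians of 0.08 in both regions, and none of 17 passed in either. With the regions averaged Mki67, which marks dividing cells of every type, was higher by 0.20 ± 0.04 (limma adjusted p 0.0189), where 2.23% of all genes were higher. Mki67 stood at 0.28 ± 0.09 in sensory and 0.11 ± 0.08 in motor cortex, and Mcm6 at -0.19 ± 0.08 in motor cortex. The mean level of the 17 genes was low, below every array median. It was 7.70 in EAE motor, 7.66 in healthy motor, 7.69 in EAE sensory and 7.63 in healthy sensory cortex.

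**Figure D5:**
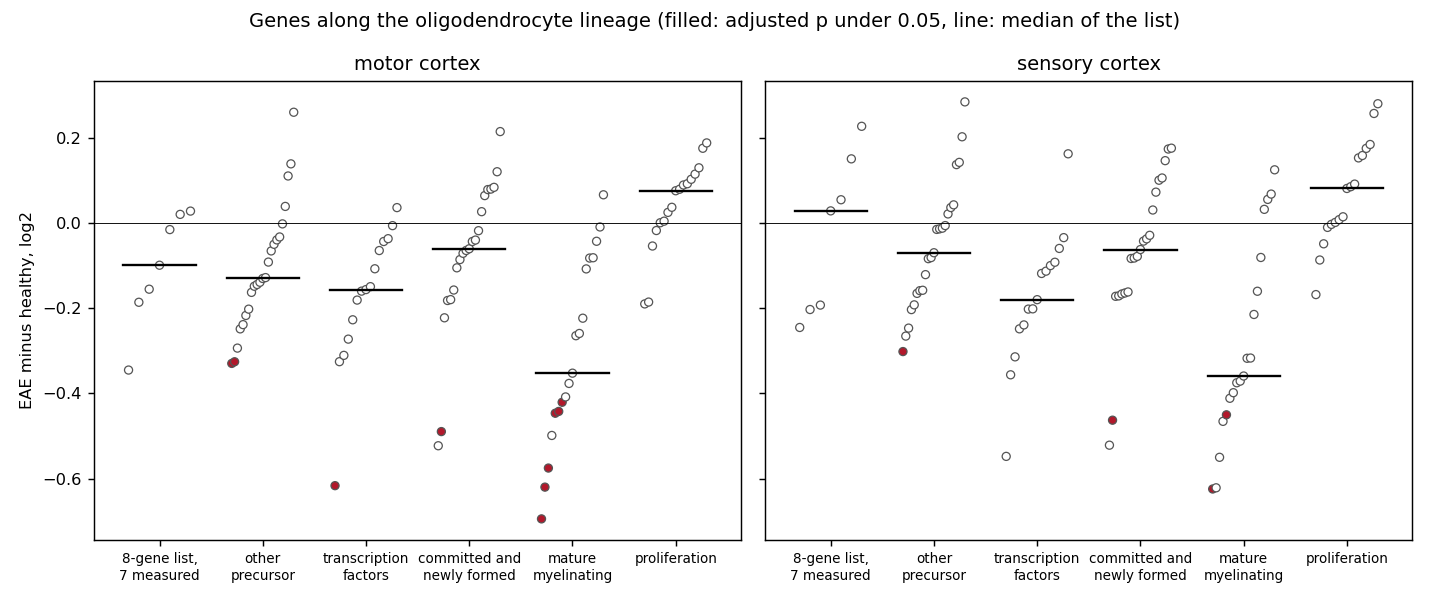
EAE minus healthy log2 difference (vertical axis) of each measured gene in the 8-gene list and in 5 other lists along the oligodendrocyte lineage, in motor and sensory cortex, with filled points for genes past an adjusted p of 0.05 and a line at the median of each list. The median of the mature myelin genes is at -0.35 in motor and -0.36 in sensory cortex, and that of the 7 measured precursor genes at -0.10 and 0.03.

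The ligands and partners of the members were measured on the same arrays. None of the 5 other PDGF ligands and receptors passed in either region. Pdgfa, the ligand of Pdgfra, was at -0.17 ± 0.09 in motor and at -0.20 ± 0.06 in sensory cortex, with limma adjusted p of 0.355 and 0.119. Of 22 BMP ligands, receptors, antagonists and targets none passed in either region. With the regions averaged 1 was lower, where 5.64% of all genes were: Acvr1, a type I receptor for these ligands (-0.27 ± 0.06, limma adjusted p 0.0321). The list median was -0.03 in motor and 0.03 in sensory cortex. In motor cortex the receptor gene Bmpr1b stood at -0.18 ± 0.06, the signal transducer gene Smad5 at -0.20 ± 0.08 and the antagonist Chrd at 0.24 ± 0.08, with limma adjusted p from 0.147 to 0.250. In sensory cortex Chrd stood at 0.14 ± 0.06, with a limma adjusted p of 0.223. There Bmp6 stood at 0.25 ± 0.06, Id1, a target of the pathway, at 0.25 ± 0.07, the antagonist Nog at -0.33 ± 0.10 and the inhibitory Smad7 at -0.29 ± 0.07, with limma adjusted p from 0.0626 to 0.124.

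Around the proteoglycans Vcan and Cspg4, 4 of 21 sialidases, chondroitin sulfate enzymes and matrix partners were lower in EAE motor cortex and none was higher, where 1.74% and 0.517% of all genes were. These were Adamts4, a protease that cleaves versican (-0.67 ± 0.12), Hapln1, a link protein of the hyaluronan matrix (-0.47 ± 0.08), the sialidase gene Neu2 (-0.41 ± 0.07) and Ncan. None passed in sensory cortex, where 6 had an unadjusted limma p under 0.05, all lower, as 11.7% of all genes were, and Adamts4 stood at -0.54 ± 0.12 and Neu2 at -0.42 ± 0.11. With the regions averaged Adamts4, Hapln1 and Neu2 were lower, where 5.64% of all genes were. None of the 10 measured genes of the ENPP family and choline supply passed between EAE and healthy mice in a region or with the regions averaged, and Enpp4 was at -0.22 ± 0.07 in motor and at -0.14 ± 0.09 in sensory cortex.

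Regional differences in healthy mice were also seen in the other precursor genes. In motor cortex 5 of 23 were higher and none lower, where 4.42% and 2.94% of all genes were: Pcdh15, a protocadherin (0.37 ± 0.06), Megf11 (0.33 ± 0.06), the Notch target Hes5 (0.31 ± 0.06), the AMPA receptor subunit Gria3 (0.30 ± 0.08) and Emid1 (0.20 ± 0.05). In EAE mice 1 of 23 was higher, Pcdh15 at 0.34 ± 0.07, where 2.14% of all genes were. Of 19 mature myelin genes none passed between the regions in healthy or in EAE mice. Pcdh15, Megf11 and Hes5 are named after their values were seen.

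Markers of other cells moved with region and condition, and their part in the members' values was not tested. Of 10 genes of pericytes and smooth muscle, which share Cspg4, none passed between EAE and healthy mice in either region, with medians of -0.10 in motor and -0.01 in sensory cortex. Their mean level was 9.35 to 9.49 in EAE motor, 9.47 to 9.61 in healthy motor, 9.55 to 9.64 in EAE sensory and 9.52 to 9.68 in healthy sensory cortex. They were lower in motor than in sensory cortex, with a median of -0.14 in EAE mice (10 of 10 below 0, Acta2 and Tagln called, against 1.86% of all genes) and -0.07 in healthy mice (9 of 10 below 0, none called). The Cspg4 probe set used had estimates of -0.12 and -0.05. A second Cspg4 probe set of similar brightness (mean 8.70 against 8.74) had the opposite sign, at 0.01 ± 0.07 in EAE and 0.11 ± 0.07 in healthy mice. None of these Cspg4 differences was called. With the regions averaged 2 of the 10 pericyte and smooth muscle genes were lower in EAE mice, where 5.64% of all genes were: Rgs5 by -0.19 ± 0.04 and Vtn by -0.20 ± 0.05. Rgs5 and Pdgfrb were above the array median on all 20 arrays.

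Of 8 genes of meningeal and perivascular fibroblasts, which share Pdgfra, Vcan and Bmp4, Igf2 was higher in EAE sensory cortex (0.60 ± 0.12, limma adjusted p 0.0380), where 0.901% of all genes were higher, and none passed in motor cortex. Their mean level was 8.46 to 8.87 in EAE motor, 8.48 to 8.74 in healthy motor, 8.65 to 9.19 in EAE sensory and 8.50 to 8.86 in healthy sensory cortex. These genes were lower in motor than in sensory cortex. Their median was -0.09 in healthy mice (7 of 8 below 0, 1 called, against 2.94% of all genes). In EAE mice it was -0.24 (8 of 8 below 0, 3 called, against 1.86% of all genes). This direction was opposite to Vcan and Pdgfra and the same as Bmp4 in EAE mice. Col1a1 and Lama1 were below the array median on all arrays.

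Striatal genes, which a cortical dissection can carry over, had medians of -0.33 in motor and -0.36 in sensory cortex between EAE and healthy mice, with none of 5 called. In each region 4 of the 5 were below 0, and Ppp1r1b went the other way, at 0.34 ± 0.16 in motor and 0.37 ± 0.15 in sensory cortex. Drd2 and Gpr6 lay below the array median on all arrays. Between the regions 1 of the 5 was lower in motor cortex in EAE mice and 2 in healthy mice, where 1.86% and 2.94% of all genes were. The mean level of the 5 was 8.75 to 9.02 in EAE motor, 8.91 to 9.50 in healthy motor, 8.85 to 9.36 in EAE sensory and 9.11 to 9.68 in healthy sensory cortex. Genes of monocytes and neutrophils were higher in EAE mice. In motor cortex 3 of 6 passed, where 0.517% of all genes were higher, and in sensory cortex 1 of 6, where 0.901% were. S100a8 had differences of 1.89 ± 0.14 (motor) and 1.66 ± 0.36 (sensory). Of 5 microglial genes 1 was lower in each region, P2ry12 at -0.97 ± 0.11 in motor and -0.98 ± 0.15 in sensory cortex. Of 6 endothelial genes 2, Tie1 and Tek, were lower in each. Beside these, 1.74% of all genes were lower in motor and 1.51% in sensory cortex. All 5 microglial estimates were below 0 in both regions, with Sall1 at -0.02 ± 0.06 in sensory cortex. Of the endothelial estimates 5 were below 0 in each region, and Pecam1 was slightly above (motor 0.05 ± 0.07, sensory 0.03 ± 0.05). Tie1 lay above the array median on 4 arrays only. None of the 6 neuronal or 6 astrocyte genes passed in either region.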

How the data were processed

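Both cortical regions of 10 mice were measured on 20 Affymetrix arrays, 1 for each region of each mouse. The authors deposited log2 values. The submitters' processing notes list RMA and Partek, and their versions are not given in the sources used here. Such normalisation by RMA brings array distributions closer together and narrows small differences where signal is low. The medians of the deposited arrays were not equal, at 8.22 to 8.32.

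Symbols came from the platform annotation, in which 34958 of 45101 probe sets had 1 symbol. The brightest probe set, by mean over all arrays, stood for each of 18194 genes. Tests used limma 3.58.1 in R 4.3.3, two-sided, with Benjamini-Hochberg adjustment over all genes at a threshold of 0.05. EAE and healthy mice were compared in each region and for the regions averaged with cohort as a covariate, and the regions within mice with the mouse as a block. Both arrays of a mouse come from 1 animal, per the labels. Their deviations from group means correlated at 0.163 to 0.587, and at -0.0316 in EAE mouse 3. A number shared by an EAE and a healthy mouse names different animals. The number of mice limits the precision.

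The members and lists were chosen with earlier results of these data known. Beside the members, the text names up to 4 genes with the smallest p for each list and region, and the 3 genes most correlated with each member. Exact permutations ran over all 210 splits of 10 mice or 720 orders of 6, without regard to cohort. Alternatives were quantile normalization, leaving out dim genes, all probe sets, an intensity trend with robust prior, cohort settings, the replicate block, the processing day and leaving out each mouse. The fits were tested on simulated data.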

Additional observations from a re-analysis of the deposited data

How the results depend on the processing

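Of 792 member values recomputed under the alternatives, 700 kept their direction and their side of the threshold or, for slopes within a cohort, which were not tested, moved by less than 1 SE. No member was called in motor cortex, in sensory cortex, for the difference of the EAE change, between regions of EAE mice or for grade under any alternative run. With the regions averaged 0 members became 1 under quantile normalization (Enpp6, limma adjusted p 0.0185), with dim genes left out (Gpr17, 0.0433, Enpp6 then not in the fit) and with an intensity trend and robust prior (Gpr17, 0.0434), and 0 to 1 with single mice left out. In healthy mice the 3 members called between regions became 1 with no replicate block (Vcan) and 0 to 3 with single mice left out. The replicate number as a block between EAE and healthy mice, who are different animals, called 0 members and left 5 genes in sensory cortex and 919 with the regions averaged.

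In all, 64 estimates of 21 results changed sign, of 56 results recomputed, and 0 of these were called in either setting. Under quantile normalization Cspg4 in motor cortex became 0.0207, averaged Pdgfra 0.0174, the Sox10 difference between EAE changes -0.00202, Enpp6 between regions of EAE mice -0.00926 and its motor grade slope 0.0893. In cohort 1 alone Cspg4 and Vcan in motor cortex became 0.116 and -0.1295, sensory Pdgfra -0.0190, and the differences between EAE changes -0.0736 for Enpp6 and -0.0320 for Sox10. In cohort 2 alone motor Bmp4 became -0.0669, sensory Cspg4 -0.0399, averaged Pdgfra 0.00173 and Cspg4 -0.0936, and the Vcan difference between EAE changes 0.00816. With the replicate block motor Cspg4 and Vcan became 0.0339 and -0.0124. Without the second processing day motor Cspg4 and Vcan became 0.0307 and -0.0503, sensory Pdgfra -0.00336, the differences between EAE changes -0.133 for Enpp6 and -0.0158 for Sox10, and Enpp6 between healthy regions 0.138. Sensory grade slopes became 0.204 for Pdgfra, 0.0427 for Cspg4 and 0.0815 for Enpp6 with cohort as a covariate, and 0.0382 for Pdgfra over the mean of both regions. Within single cohorts, without a test, 8 grade slopes changed sign. Motor slopes became 0.0963 for Gpr17 and 0.0408 for Sox10 in cohort 1, and -0.362 for Vcan and 0.0511 for Enpp6 in cohort 2. Sensory slopes became 0.0598 for Pdgfra in cohort 1, and 0.312 for Pdgfra, 0.204 for Cspg4 and 0.3645 for Enpp6 in cohort 2.

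With single mice left out these estimates spanned 0: motor Cspg4 -0.0608 to 0.0307, motor Bmp4 -0.0749 to 0.121, motor Vcan -0.0503 to 0.0837, sensory Pdgfra -0.00956 to 0.0816, averaged Pdgfra -0.0565 to 0.00270 and averaged Cspg4 -0.0117 to 0.0692. The differences between EAE changes ran from -0.0824 to 0.122 for Enpp6 and -0.0131 to 0.0381 for Sox10. Healthy regional differences ran from -0.134 to 0.0428 for Enpp6 and -0.00597 to 0.0350 for Sox10, and that of Enpp6 in EAE mice from -0.0421 to 0.0543. Grade slopes ran from -0.111 to 0.0698 for motor Enpp6, -0.141 to 0.0958 for sensory Pdgfra and -0.0194 to 0.351 for sensory Vcan.

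Counts over all genes moved by more than 1.5 times. The 410 of motor cortex became 9 and 16 in single cohorts, 194 without the second day and 145 at the lowest with a mouse left out. The 438 of sensory cortex became 838 without dim genes, 260 with every probe set, 800 with trend and robust prior, 0 and 141 in single cohorts, 118 without the second day and 19 to 1009 with a mouse left out (1009 without EAE mouse 1). The averaged 1431 became 0 and 574 in single cohorts, 6 without the second day and 472 at the lowest with a mouse left out. The 1338 between healthy regions became 674 with no replicate block and 606 at the lowest with a mouse left out, and the 728 between EAE regions 315. The 4 motor grade slopes became 7 under quantile normalization, 8 with cohort as a covariate, 0 for the mean of regions and 0 to 58 with a mouse left out (58 without EAE mouse 2 or 6). The causes were not tested.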

Other observations

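Between the regions 1 of 5 PDGF genes passed in EAE mice and 1 of 5 in healthy mice, and of 22 BMP genes 1 in EAE mice and 2 in healthy mice, beside 4% and 7.35% of all genes. Of 21 matrix genes 2 passed in EAE mice and 3 in healthy mice. Pdgfc, a ligand of Pdgfra, was higher in motor than in sensory cortex by 0.37 ± 0.08 in EAE mice and by 0.37 ± 0.05 in healthy mice (SE, log2), with limma adjusted p of 0.0365 and 0.00142. Fst, the secreted antagonist follistatin, was lower in motor cortex, by -0.48 ± 0.07 in EAE and -0.45 ± 0.07 in healthy mice, with limma adjusted p of 0.00601 and 0.00264. Bmp2 was higher in motor cortex of healthy mice by 0.40 ± 0.08 (limma adjusted p 0.00986). Acan, the proteoglycan aggrecan of perineuronal nets, was lower in motor cortex, by -0.33 ± 0.07 in EAE and -0.39 ± 0.06 in healthy mice, and Chst11, a chondroitin sulfotransferase, was higher by 0.26 ± 0.05 and 0.21 ± 0.05. Fst, Bmp2, Acan and Chst11 are named after their values were seen, and the values above describe single genes, not their lists.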
